A study of Mus musculus with 30 samples.

Results

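The interleukin 6 (IL-6) family and its receptors were followed in mouse hearts after myocardial infarction (MI). The 10 genes were taken by name from the 43629 genes counted: the ligands Il6, Il11, Lif, Osm and Clcf1, and the receptors Il6ra, Il11ra1, Osmr, Lifr and Il6st. All 10 were present in the count tables of all 30 libraries. The hearts came from wild-type C57BL/6J mice. Under isoflurane, the chest was opened and the pericardium removed, and a coronary artery was then ligated (MI) or not ligated (sham). Hearts were taken 2, 4 or 7 days later, with 5 libraries in each of the 6 groups. All groups, sham included, had therefore been through chest surgery, and no unoperated heart was part of the comparisons. The labels give neither the age of the mice nor the part of the heart taken. They name the replicates as separate samples without saying whether these came from separate animals, so that a p-value reflects only how these samples vary, which may be technical.

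The cytokines of this family share a signalling receptor chain, gp130, the product of Il6st. IL-6 and IL-11 first bind receptors of their own, the products of Il6ra and Il11ra1, which do not signal by themselves, whereas LIF and OSM recruit LIFR or OSMR beside gp130, and CLCF1 acts on a receptor of CNTFR, LIFR and gp130. The receptors carry JAK kinases, which phosphorylate STAT3. SOCS3, itself induced by STAT3, limits the signal. In the heart this pathway is known for its part in cardiomyocyte survival, inflammation and fibrosis after injury.

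The sequence just before the transcription start is shown for Il6, Il11 and Lif, the ligands with a RefSeq window (GRCm38.p6) that was not all exon, since these genes were higher in MI libraries at every day measured. RefSeq windows were matched for 8 of the 10 genes, and none was at hand for Osm and Clcf1. The windows are chr5:30012864-30013113 on the plus strand for Il6, chr7:4778142-4778391 on the minus strand for Il11, for which a second start also has a window, and chr11:4257318-4257556 on the plus strand for Lif, all read 5′ to 3′ along the gene. Capitals mark matches to the AP-1 motif TGANTCA and, in Il6 and Lif, to the kappa B consensus.
Il6: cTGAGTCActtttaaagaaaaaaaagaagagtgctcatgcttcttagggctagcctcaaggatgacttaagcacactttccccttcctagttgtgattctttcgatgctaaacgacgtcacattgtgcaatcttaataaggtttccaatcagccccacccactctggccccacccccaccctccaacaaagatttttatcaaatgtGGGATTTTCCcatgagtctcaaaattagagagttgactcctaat
Il11: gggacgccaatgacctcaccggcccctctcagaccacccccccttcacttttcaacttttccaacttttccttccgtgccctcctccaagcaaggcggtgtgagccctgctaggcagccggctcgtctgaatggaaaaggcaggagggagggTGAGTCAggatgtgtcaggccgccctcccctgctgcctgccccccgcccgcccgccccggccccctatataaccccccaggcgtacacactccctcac
Lif: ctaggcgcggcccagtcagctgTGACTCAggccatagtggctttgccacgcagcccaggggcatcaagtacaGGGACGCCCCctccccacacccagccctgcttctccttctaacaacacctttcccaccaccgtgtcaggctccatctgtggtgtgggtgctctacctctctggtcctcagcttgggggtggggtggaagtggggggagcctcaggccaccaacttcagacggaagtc
Both strands were searched in the 250 bases before each start. The AP-1 letters lay at -249 to -243 in Il6, -98 to -92 in Il11 and -228 to -222 in Lif, counted from the start. The kappa B match lay at -44 to -35 in Il6 and at -178 to -169 in Lif. Of 32851 windows of this length, 6.75% held the AP-1 letters and 7.25% the kappa B consensus. The STAT motif TTCNNNGAA was in 0 of the 8 matched genes and in 7.02% of all windows. These are matches of letters only, and nothing was measured at these sites.

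Libraries held 7841930 to 14070017 counts and 18668 to 20905 detected genes. Levels are in CPM, the counts of a gene scaled by the total of its library. A gene with no count may hold up to 3 counts, which is 0.213 to 0.383 CPM by library and covers counting error only. Whether groups overlap was judged in CPM. The fold changes also use scaling factors (TMM), which were lower in every sham library than in every MI library of its day. CPM therefore place MI higher against sham than the fold changes do. As a check of the labelled tissue, 6 cardiomyocyte markers summed to at least 30568 CPM in every library. In 6 libraries the lung genes Sftpc and Scgb1a1 together reached 50 CPM or more: sham day 4 replicates 2 and 3, sham day 7 replicates 1, 2 and 3, and MI day 7 replicate 2. Only these 6 are left out where results without lung transcripts are given. MI day 7 replicates 3, 4 and 5 held 22.0, 10.7 and 24.0 CPM of the same genes and were kept. Day 7 results given in this way are therefore not free of lung transcripts. MI day 7 replicate 4 held skeletal muscle transcripts, with Myh1 at 288 CPM. Day 2 libraries carry another number in their labels than those of days 4 and 7. It may be that of a run or batch, which was not established. A difference between day 2 and the later days cannot be told apart from one that goes with this number.

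In each of the 3 comparisons of MI with sham, the ligands that could be tested were all higher in MI, while the receptors split, Il6ra and Osmr higher, Lifr lower and Il6st within the spread. At day 2, 6 of the 9 genes tested were higher and 2 lower, where 46.3% of all 14524 genes tested differed, 24.1% upwards and 22.2% downwards (edgeR quasi-likelihood test, Benjamini-Hochberg adjusted p under 0.05). At day 4, 6 were higher and 2 lower of 9, against 52.7% of all genes, 27.5% up and 25.2% down. At day 7, 5 were higher and 1 lower of 8, against 55% of all genes, 28.4% up and 26.6% down. The median log2 fold change of the members tested was 1.01, 0.97 and 0.99 at days 2, 4 and 7, and that of all genes tested was -0.01, 0.01 and 0.01. Il11 at all 3 days and Osm at day 7 had too few counts for the filter and were tested apart. The filter has a minimum count of 10. In sham, no library held more than 10 counts of Il6 at days 4 and 7 or 11 of Lif at day 7. For Osm at days 2 and 4, none held more than 7. These ligands passed mainly through their MI libraries, so that the ligand result and the counts of members higher partly follow from the filter. In whole tissue, fewer cells of a type and less RNA per cell cannot be told apart. Scaled by library totals alone, all genes shifted by a median of 0.09, 0.18 and 0.21 towards MI, and the calls over all genes moved from 3499 higher and 3224 lower to 4365 and 2350 at day 2, from 3968 and 3629 to 5575 and 2251 at day 4, and from 4117 and 3858 to 5749 and 2437 at day 7.

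**Figure D1:**
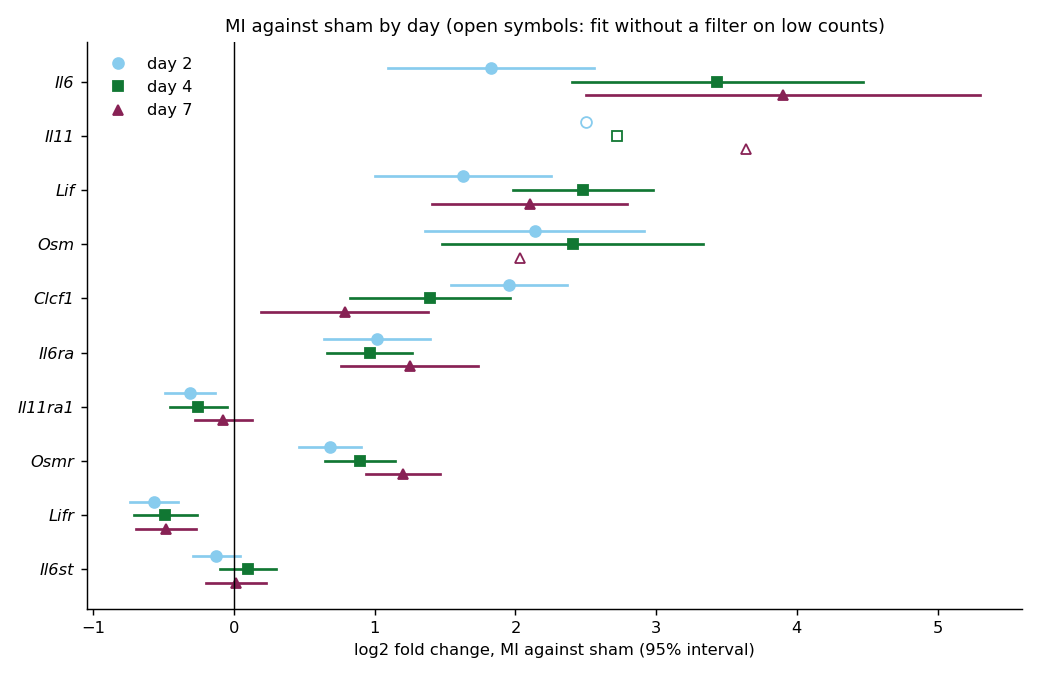
Log2 fold change of MI against sham for each of the 10 genes (horizontal axis) at days 2, 4 and 7, with 95% intervals computed from the edgeR fits. Open symbols without intervals are from the fit without a filter on low counts. The 5 ligands, Il6ra and Osmr lie to the right of 0 at every day, and Lifr lies to the left.

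Il6 (ENSMUSG00000025746, chromosome 5, 30013114 to 30019981 in GRCm38), the ligand that gives the family its name, was the member with the largest fold change at days 4 and 7 among those tested. At day 2 the sham libraries read 1.15, 1.90, 0.854, 0.386 and 1.67 CPM (replicates 1 to 5, as throughout) and the MI libraries 6.89, 6.39, 3.5, 3.06 and 2.98 CPM. At day 4 sham read 0.530, 1.07, 0.118, 0.201 and 0.666 CPM and MI 9.69, 2.82, 4.8, 10 and 5.29 CPM. At day 7 sham read 0.0916, 0.785, 0.55, 0.251 and 0 CPM and MI 13.4, 4.88, 5.69, 2.94 and 2.70 CPM. Every MI library was above every sham library of its day, the lowest sham values were those of days 4 and 7, and the MI libraries were widely spread, MI day 7 replicate 1 most of all. On the log2 scale the fold change was 1.83 ± 0.34 SE at day 2, 3.43 ± 0.48 at day 4 and 3.90 ± 0.65 at day 7 (edgeR adjusted p = 0.000581, 4.67e-05 and 0.00022). These are 3.55-, 10.8- and 14.9-fold. The sham means at days 4 and 7 were 0.518 and 0.335 CPM, near the level of 3 counts, and the MI means 6.52 and 5.92 CPM. The size of the later folds therefore rests on few sham counts and depends on the prior count. Without the libraries holding lung transcripts, the day 7 value was 5.24 on the log2 scale (edgeR adjusted p = 0.00827). This leaves sham day 7 replicates 4 and 5, which held 2 and 0 counts of Il6. All MI libraries were above all sham libraries in CPM for 20.3, 28.2 and 29.3% of all genes tested at days 2, 4 and 7. Among the members this held for 6 of 9, 6 of 9 and 5 of 8, counts that partly follow from the filter. Clcf1 at day 7 was a close case (lowest MI 2.59, highest sham 2.47 CPM) that depends on scaling by library totals.

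Il11 (ENSMUSG00000004371, chromosome 7, 4772373 to 4782859), the ligand of the Il11ra1 receptor and a cytokine studied for its action on fibroblasts, was the least counted member. At day 2 sham read 0.355, 0.152, 0.0854, 0 and 0.0881 CPM and MI 0.823, 1.09, 0.530, 1.07 and 0.652 CPM. At day 4 sham read 0.106, 0, 0.236, 0.101 and 0.222 CPM and MI 0.816, 1.22, 1.60, 1.27 and 0.260 CPM. At day 7 sham read 0, 0.112, 0, 0.126 and 0 CPM and MI 1.36, 0.830, 0.578, 0.757 and 0.539 CPM. The groups did not overlap on any day, although MI day 4 replicate 5 was close to the highest sham library. Summed over the 5 libraries of a group, MI held 49, 54 and 41 counts and sham 8, 6 and 2 counts at days 2, 4 and 7. The ratio of the pooled CPM was 6.52 (95% interval 3.06 to 15.9), 7.87 (3.39 to 22.4) and 17.7 (4.61 to 151), intervals that cover counting error only. An exact permutation test, 2-sided, gave p = 0.00794 at each day, the smallest that 5 against 5 libraries allow (adjusted p = 0.0106 over the 4 such tests). In the edgeR fit without a filter the log2 fold changes were 2.5, 2.72 and 3.64 (adjusted p = 0.00026, 0.00073 and 0.000813), values that depend on the prior count.

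Lif and Osm lie beside each other on chromosome 11, Osm (ENSMUSG00000058755) at 4236420 to 4241026 and Lif (ENSMUSG00000034394) at 4257557 to 4272514, 16.5 kb apart with 0 protein-coding genes between them and both on the plus strand. Lif encodes leukemia inhibitory factor, which signals through LIFR and gp130. Lif read 1.42, 1.14, 0.342, 0.850 and 0.793 CPM in sham and 2.47, 3.43, 4.35, 2.35 and 2.61 CPM in MI at day 2. At day 4 it read 1.27, 1.18, 1.41, 1.01 and 0.555 CPM in sham and 7.86, 6.49, 7.62, 7.65 and 4.94 CPM in MI. At day 7 it read 0.916, 1.23, 0.880, 0.251 and 1.02 CPM in sham and 4.32, 5.50, 5.12, 4.04 and 2.48 CPM in MI. The sham groups were alike in level across the days, the MI libraries were above the sham libraries of their day without overlap, and the MI mean was highest at day 4, although replicate 5 of that day lay below MI day 7 replicates 2 and 3. The log2 fold change was 1.63 ± 0.29 SE, 2.48 ± 0.23 and 2.10 ± 0.32 at days 2, 4 and 7 (edgeR adjusted p = 0.000367, 8.65e-07 and 0.000108). The effect at day 4 exceeded that at day 2 by 0.86, with a p of 0.0459 before adjustment and an edgeR adjusted p of 0.233.

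Osm encodes oncostatin M, a cytokine made by macrophages and neutrophils that acts mainly through OSMR in the mouse. Osm read 0.355, 0.304, 0.512, 0.0772 and 0.617 CPM in sham and 1.54, 1.33, 1.80, 2.42 and 1.58 CPM in MI at day 2. At day 4 it read 0.742, 0.645, 0.118, 0.101 and 0.333 CPM in sham and 3.47, 1.32, 2.07, 2.65 and 2.51 CPM in MI. At day 7 it read 0.0916, 0.673, 0.330, 0.126 and 0.510 CPM in sham and 2.84, 1.87, 2.15, 0.420 and 0.971 CPM in MI. The groups were apart at days 2 and 4, and at day 7 MI replicate 4, the library with skeletal muscle transcripts, lay among the sham libraries. Its log2 fold change was 2.14 ± 0.37 SE at day 2 and 2.41 ± 0.43 at day 4 (edgeR adjusted p = 0.000225 and 0.000269). At day 7 the groups held 83 and 15 counts, a ratio of 4.79 (95% interval 2.74 to 8.93, counting error only), with an exact permutation p of 0.0238, 2-sided (adjusted p = 0.0238 over the same 4 tests). Without the libraries holding lung transcripts the day 7 log2 fold change was 2.03 with an edgeR adjusted p of 0.121, and without a filter on all 10 libraries it was 2.03 with 0.00614.

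Clcf1 (ENSMUSG00000040663, chromosome 19, 4214238 to 4223490) encodes cardiotrophin-like cytokine factor 1. It was the tested ligand whose difference was smallest at the last day. At day 2 sham read 1.78, 2.89, 2.99, 1.70 and 1.67 CPM and MI 10.1, 7.33, 9.23, 10.9 and 8.29 CPM. At day 4 sham read 0.848, 2.26, 2.83, 1.81 and 2 CPM and MI 7.86, 4.04, 4.42, 6.37 and 6.16 CPM. At day 7 sham read 2.47, 2.35, 1.87, 2.01 and 1.91 CPM and MI 3.86, 3.22, 7.26, 3.95 and 2.59 CPM. Sham libraries stayed near the same level, and the MI mean was highest at day 2 and came closest to sham at day 7, where replicate 3 stood above the other MI libraries. MI against sham gave a log2 fold change of 1.96 ± 0.19 SE, 1.39 ± 0.27 and 0.79 ± 0.28 at days 2, 4 and 7 (edgeR adjusted p = 2.29e-06, 0.000475 and 0.0261). The effect at day 7 was lower than that at day 2 by a log2 difference of -1.14 ± 0.37 SE (edgeR adjusted p = 0.027). The day 7 call was lost when any of 3 sham libraries of that day, replicates 3, 4 and 5, or the MI replicate 3 was left out (edgeR adjusted p = 0.0555, 0.0517, 0.0531 and 0.0801), without the libraries holding lung transcripts (0.13) and with limma voom (0.0657). The call on the difference between days was lost without the lung-bearing libraries (-0.97, edgeR adjusted p = 0.178), without sham day 2 replicate 4 (0.0503) and without sham day 7 replicate 1 (0.0537). The exons of Clcf1 overlap those of another annotated gene over 8.17% of their length.

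**Figure D2:**
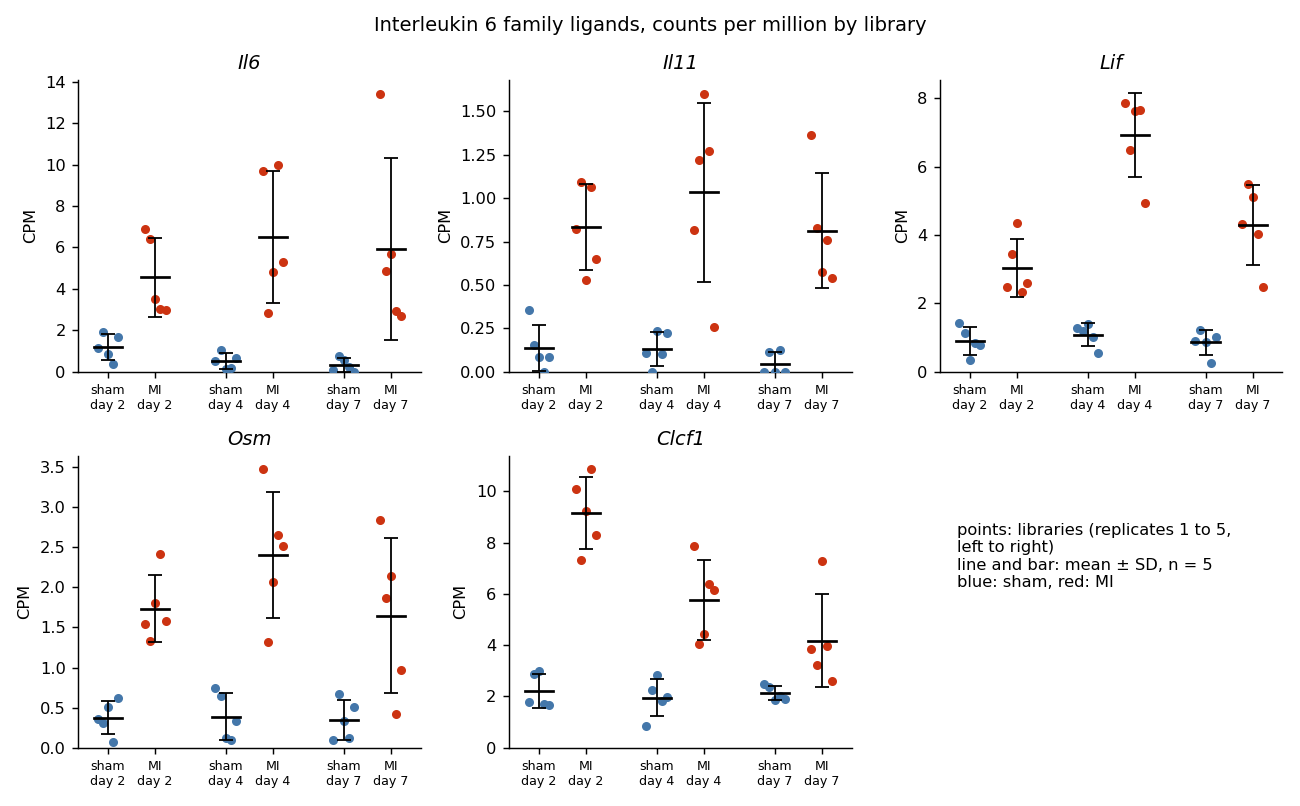
CPM of the 5 ligands in each library (vertical axis) by operation and day, with the mean and SD of 5 libraries. MI points lie above the sham points of the same day, except that Osm in 1 MI library of day 7 falls among the sham libraries. The MI mean of Clcf1 is highest at day 2.

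The receptor chains did not move together. Il6ra (ENSMUSG00000027947, chromosome 3, 89864059 to 89913196), the receptor of IL-6, read 3.79 to 7.61 CPM in sham and 10.1 to 16.3 CPM in MI at day 2, 6.99 to 11.4 and 15.4 to 22.4 CPM at day 4, and 5.22 to 11.4 and 13.3 to 27.0 CPM at day 7. The groups did not overlap on any day, and the MI mean was 12.0 ± 2.46 CPM at day 2, 19.0 ± 2.87 at day 4 and 19.3 ± 4.98 at day 7 (SD, n = 5). The log2 fold change was 1.01 ± 0.18 SE, 0.97 ± 0.14 and 1.25 ± 0.23 (edgeR adjusted p = 0.000283, 4.83e-05 and 0.000417). An antisense gene overlaps 2.80% of its exons, and the strand setting of the counting is not given in the sources used here.

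Il11ra1 (ENSMUSG00000073889, chromosome 4, 41699989 to 41769474), the receptor of IL-11, was slightly lower in MI at days 2 and 4. MI means were 49.6 ± 2.89, 52.2 ± 6.49 and 63.9 ± 5.89 CPM and sham means 57.6 ± 5.68, 55.1 ± 4.69 and 59.0 ± 7.01 CPM at days 2, 4 and 7 (SD, n = 5). The groups overlapped at every day. MI against sham gave a log2 fold change of -0.31 ± 0.08 SE at day 2, -0.25 ± 0.10 at day 4 and -0.08 ± 0.09 at day 7 (edgeR adjusted p = 0.00688, 0.0369 and 0.513). The day 4 call did not hold without a filter (edgeR adjusted p = 0.0696), with library totals alone (-0.08, 0.518), without the lung-bearing libraries (-0.19, 0.169), or when any of the sham replicates 2, 3 and 4 or the MI replicates 2, 3 and 5 of that day was left out (0.0552 to 0.0988). Near-copies annotated as Il11ra2 hold 498, 82 and 188 counts over all libraries under 3 identifiers, and reads may have been split between them and Il11ra1.

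Osmr and Lifr, the chains that pair with gp130 for OSM and LIF, are neighbours on chromosome 15, Osmr (ENSMUSG00000022146) at 6813577 to 6874969 and Lifr (ENSMUSG00000054263) at 7090614 to 7197489, 215.6 kb apart with 0 protein-coding genes between them. They moved in opposite directions. At day 2 Osmr read 33.8, 45.0, 31.7, 34.5 and 29.3 CPM in sham and 62.5, 55.2, 58.7, 65.0 and 56.6 CPM in MI. At day 4 Osmr read 31.4, 27.6, 31.7, 21.7 and 21.4 CPM in sham and 61.0, 47.3, 57.9, 51.3 and 63.6 CPM in MI. At day 7 Osmr read 21.7, 24.8, 21.1, 19.7 and 23.2 CPM in sham and 54.0, 50.9, 76.3, 59.2 and 49.6 CPM in MI. The groups were apart at every day, the MI mean was much the same across the days and the sham mean was lower at the later days. Osmr had a log2 fold change of 0.68 ± 0.10 SE, 0.90 ± 0.12 and 1.20 ± 0.12 (edgeR adjusted p = 8.66e-05, 1.63e-05 and 6.63e-06).

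The effect on Osmr at day 7 was larger than at day 2 by 0.54 ± 0.17 SE on the log2 scale (edgeR adjusted p = 0.023). Without the lung-bearing libraries this difference was 0.59 with an edgeR adjusted p of 0.0684, without sham day 2 replicate 2 it was 0.44 with 0.065, and without MI day 7 replicate 3 it was 0.40 with 0.066. MI means were 59.6 ± 4.09, 56.2 ± 6.80 and 58.0 ± 10.9 CPM and sham means 34.9 ± 6.05, 26.8 ± 5 and 22.1 ± 1.95 CPM (SD, n = 5). The MI means were alike and the sham means lower at the later days, and days 2 and 7 also differ in the number in their labels.

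Lifr was lower in MI. At day 2 it read 64.8, 64.7, 70.3, 69.5 and 67.8 CPM in sham and 46.1, 55.8, 51.8, 47.6 and 41.4 CPM in MI. At day 4 it read 59.3, 55.7, 65.4, 57.9 and 57.4 CPM in sham and 38.9, 48.3, 58.7, 40.4 and 51.7 CPM in MI. At day 7 it read 59.5, 61.1, 51.9, 64.2 and 68.0 CPM in sham and 48.3, 52.9, 50.2, 43.0 and 54.8 CPM in MI. The groups were apart in CPM at day 2, where 10.3% of all genes had all MI libraries below sham. They overlapped in CPM at day 4 through MI replicate 3 and at day 7 through sham replicate 3. These overlaps depend on scaling by library totals. The scaling factors of the fits were 1.06 for that MI library and 0.932 for that sham library. Lifr had a log2 fold change of -0.57 ± 0.08 SE, -0.49 ± 0.10 and -0.48 ± 0.10 (edgeR adjusted p = 5.57e-05, 0.0012 and 0.000969).

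Within a library, the ratio of Osmr to Lifr counts does not depend on how libraries are scaled. It averaged 0.519 ± 0.105, 0.452 ± 0.072 and 0.365 ± 0.043 in sham and 1.24 ± 0.17, 1.21 ± 0.24 and 1.18 ± 0.26 in MI at days 2, 4 and 7 (SD, n = 5). The highest sham ratio was 0.696 and the lowest MI ratio 0.906, so that no sham library of any day reached any MI library. The ratio shows unequal change and not which of the 2 genes changed. Osmr had been called higher and Lifr lower in these same libraries, so that the separation largely follows from those calls and is no further test. How many pairs of genes separate in this way was not counted.

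**Figure D3:**
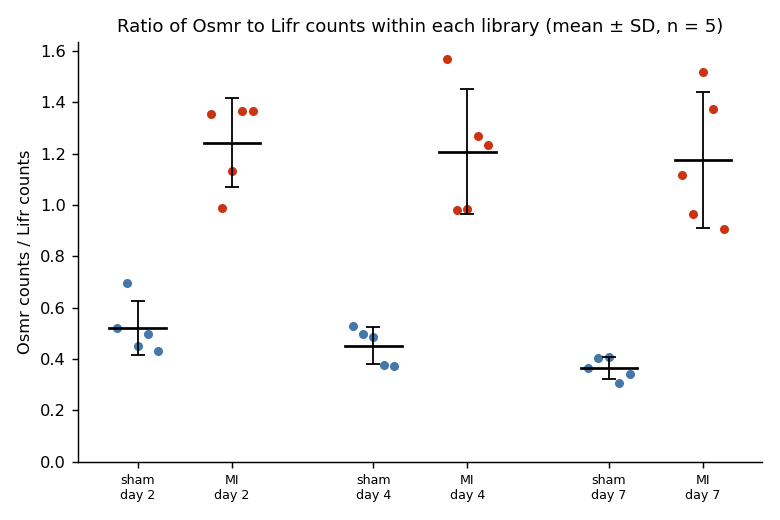
Ratio of Osmr to Lifr counts in each library (vertical axis) by operation and day, with the mean and SD of 5 libraries. All sham points lie at or below 0.696 and all MI points at or above 0.906.

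Il6st (ENSMUSG00000021756, chromosome 13, 112464070 to 112510086), which encodes the shared chain gp130, was the most counted member. Its level was 322 ± 12.0, 357 ± 33.1 and 343 ± 38.7 CPM in MI and 330.3 ± 32.8, 296 ± 38.2 and 297 ± 23.7 CPM in sham at days 2, 4 and 7 (SD, n = 5). The groups overlapped at every day. The log2 fold change was -0.12 (95% interval -0.29 to 0.04), 0.10 (-0.10 to 0.30) and 0.01 (-0.20 to 0.23), with edgeR adjusted p of 0.205, 0.399 and 0.921. With library totals alone the day 4 value was 0.27 (edgeR adjusted p = 0.0314).

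**Figure D4:**
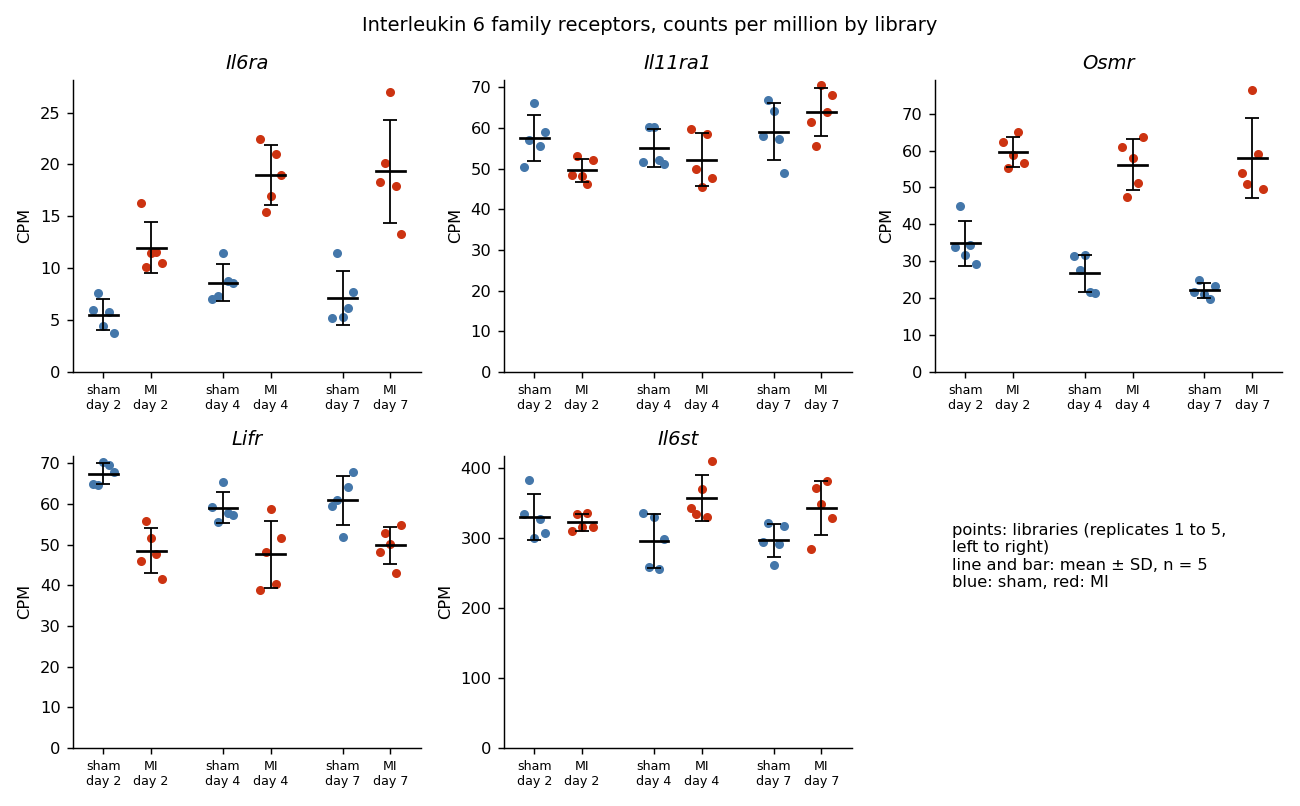
CPM of the 5 receptor genes in each library (vertical axis) by operation and day, with the mean and SD of 5 libraries. Il6ra and Osmr are higher and Lifr is mostly lower in MI, while Il11ra1 and Il6st overlap between MI and sham at every day.

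The MI effect was compared between days over all 30 libraries. For 10 genes, the counts called are near the shares of all genes. Between days 4 and 2, 0 of 10 passed, where 4.8% of all 15537 genes did. Lif and Il6 had an unadjusted p under 0.05, and DESeq2 and limma voom also called 0. Between days 7 and 4, 0 of 10 passed, against 1.02% of all genes. None had an unadjusted p under 0.05 in edgeR, and DESeq2 and limma voom called 0. Between days 7 and 2, 2 of 10 passed, Osmr upwards and Clcf1 downwards, against 19.2% of all genes, 10.1% upwards and 9.11% downwards. The difference for Il6 between these days was 2.10 ± 0.83 SE with an edgeR adjusted p of 0.0682, and DESeq2 called it (adjusted p = 0.0276).

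Levels of different genes were compared per kilobase of merged exons within day 7, and 2 genes are called within their spread where their means ± SD overlap. In sham the levels were 26.7 ± 2.13 CPM per kb for Il6st, 13.2 ± 1.57 for Il11ra1, 5.66 ± 0.556 for Lifr and 1.82 ± 0.161 for Osmr (SD, n = 5), each beyond the spread of the next. They were followed by Il6ra at 0.827 ± 0.3 and Clcf1 at 0.558 ± 0.0716 CPM per kb, which were within their spread. Lif at 0.198 ± 0.0844, Osm at 0.152 ± 0.109, Il6 at 0.138 ± 0.135 and Il11 at 0.0228 ± 0.0314 CPM per kb came last, each within the spread of its neighbours. In MI, Il6st at 30.9 ± 3.49 and Il11ra1 at 14.3 ± 1.32 CPM per kb again came first, and Osmr at 4.79 ± 0.898 and Lifr at 4.63 ± 0.421 CPM per kb were within their spread. Il6 at 2.44 ± 1.80 CPM per kb was so variable that it was within the spread of Osmr and Lifr, of its receptor Il6ra at 2.24 ± 0.576 and of the ligands Clcf1 at 1.10 ± 0.476, Lif at 0.986 ± 0.269 and Osm at 0.726 ± 0.423 CPM per kb. Il11 at 0.391 ± 0.159 CPM per kb was lowest, within the spread of Osm.

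Markers of several other cell types also differed between MI and sham. Over all genes tested, 24.1, 27.5 and 28.4% were higher and 22.2, 25.2 and 26.6% lower at days 2, 4 and 7. Neutrophil markers were higher in MI for 7 of 7 tested at day 2, 6 of 6 at day 4 and 3 of 3 at day 7. Retnlg at day 4, and Cxcr2, Retnlg, Il1r2 and Mmp8 at day 7, had too few counts to be tested. The summed neutrophil level ran from 191 to 698, 36.9 to 237 and 17.4 to 264 CPM in MI. In sham it ran from 9.42 to 18.2, 5 to 12.3 and 2.30 to 9.87 CPM. At sham levels this low, passing the filter rested mainly on the MI libraries, so that these counts partly follow from it. Monocyte and macrophage markers were higher for 6, 8 and 8 of 8, with summed levels of 609 to 1270, 1698 to 2119 and 1248 to 2617 CPM in MI against 484 to 622, 468 to 802 and 405 to 833 CPM in sham. None of these markers was at 0 in any group. Fibroblast markers were lower for 3 of 6 at day 2, higher for 2 and lower for 2 at day 4 and higher for 5 at day 7, and scaled by library totals alone 3 were higher and 1 lower at day 4. Cardiomyocyte markers were lower for 4, 6 and 6 of 6. Pericyte and smooth muscle markers were lower for 4, 3 and 2 of 6 and higher for 1, 1 and 2, with summed levels of 773 to 955, 967 to 1122 and 1289 to 1542 CPM in MI against 1300 to 1369, 1174 to 1575 and 1306 to 1524 CPM in sham. Mesothelial markers were lower for 3 of 5 at day 2, or 1 with library totals alone, and none passed at days 4 and 7. The part of these cells in the values above was not tested.

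The genes whose pattern over the 30 libraries lay nearest to each member were found by the root mean square difference of log2(CPM + 0.5), each gene centred on its mean. The 0.5 added damps the change of genes whose sham level is near or below 0.5 CPM, such as Il6 and Osm. More abundant genes with smaller changes can then lie nearest. For Il6, whose own spread on this scale was 1.36, they were Tyrobp (0.47), an adaptor of myeloid receptors, S100a4 (0.51) and Ms4a6d (0.52). At days 4 and 7 these rose 4.86- and 5.35-fold, 4.21- and 4.80-fold, and 6.96- and 7.87-fold on this scale. For Il6 the edgeR folds were 10.8 and 14.9, which are another measure and cannot be set against these sizes. For Lif, with a spread of 1.02, they were the complement receptors C5ar1 (0.31) and C3ar1 (0.32) and Lcp1 (0.32), an actin-bundling protein of leukocytes. For Osm, with a spread of 0.86, they were Maff (0.39), Tpd52 (0.39) and the chemokine Ccl3 (0.40). For Clcf1, with a spread of 0.81, they were Slc2a1 (0.31), a glucose transporter, Gadd45g (0.34) and Tuba1c (0.35). Il6ra, with a spread of 0.72, lay nearest to Fes (0.20), Prkcd (0.21) and Adss (0.23), and Osmr, with a spread of 0.59, to Picalm (0.18), Zyx (0.18) and P4hb (0.18). Lifr, with a spread of 0.23, lay nearest to Rbl2 (0.12), Ncoa2 (0.13) and Adgrf5 (0.14). Il11ra1 varied so little, with a spread of 0.17, that its nearest genes Usf1, Itm2b and Ggnbp2 (0.15 each) were hardly nearer than a flat line.

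Among 6 other ligand genes of the family, 1 could be tested at day 2 and 2 at days 4 and 7. Ctf1, which encodes cardiotrophin 1, was lower in MI at all 3 days (-0.88, -1.06 and -0.84, edgeR adjusted p = 0.000242, 4.26e-05 and 0.00126). Ebi3, a subunit of interleukin 27, was higher at day 7 (1.75, edgeR adjusted p = 0.000256) and had a log2 fold change of 0.40 at day 4 (edgeR adjusted p = 0.363).

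Of 4 other receptor genes of the family 3 were tested. Cntfr, the third chain of the CLCF1 receptor, was lower in MI at days 2 and 7 (-0.90 and -0.87, edgeR adjusted p = 0.00135 and 0.00111) and read -0.44 at day 4 (0.117). Il27ra had log2 fold changes of -0.31, 0.40 and 0.18 and Il11ra2 of -0.34, 0.35 and 0.13, and neither passed at any day, except that Il27ra passed at day 4 with library totals alone (0.58, edgeR adjusted p = 0.049). Of 4 genes for the shedding of IL-6 receptors from the cell surface, 2, 3 and 3 were higher at days 2, 4 and 7. Over all genes tested, 24.1, 27.5 and 28.4% were higher. None of the 4 was lower, and their medians were 0.18, 0.40 and 0.41. The genes called higher included the protease Adam10 at all 3 days (0.24, 0.55 and 0.46). At days 4 and 7 they included Adam17 (0.34 and 0.36) and its cofactor Rhbdf1 (0.45 and 0.70). Rhbdf2, another cofactor of Adam17, was higher at day 2 (0.34, edgeR adjusted p = 0.00822). The day 2 call of Adam10 was lost without MI replicate 1, MI replicate 2 or sham replicate 5 of that day (edgeR adjusted p = 0.0547, 0.0544 and 0.0611), and the day 7 call of Adam17 without the lung-bearing libraries (0.0916).

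The JAK, STAT and adaptor genes went both ways, as did all genes tested. Of 12 tested, 1, 3 and 2 were higher and 4, 4 and 5 lower at days 2, 4 and 7, with medians of -0.10, 0.09 and -0.06. Over all genes tested, 24.1, 27.5 and 28.4% were higher and 22.2, 25.2 and 26.6% lower. For a list this small, the counts are near those shares. Scaled by library totals alone, 2, 6 and 5 were higher and 4, 3 and 2 lower, which turned the balance round at days 4 and 7. Stat3, which carries most of the signal of gp130, had a log2 fold change of 0.17 and 0.20 at days 2 and 4 (edgeR adjusted p = 0.233 and 0.0952) and was higher at day 7 (0.40, 0.009). The Stat3 call at day 7 was lost without the lung-bearing libraries (0.26, edgeR adjusted p = 0.268), and Stat3 passed at day 4 with library totals alone (0.38, 0.00671) and with limma voom (0.22, 0.0498). Stat5a (-0.59, -0.63 and -0.77) and Stat5b (-0.42, -0.69 and -0.72) were lower at every day, and the adaptor Shc1 was higher at every day (0.43, 0.58 and 0.60). Jak1 was lower at day 2 (-0.43, edgeR adjusted p = 0.00155), and its effect differed between days 4 and 2 by 0.57 (0.0168). That difference was no longer called without the lung-bearing libraries (0.49, edgeR adjusted p = 0.0554) or without MI day 4 replicate 5 (0.52, 0.0505).

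Of 11 inhibitors of the signal, 6, 5 and 6 were higher and 2 lower at each day, with medians of 0.38, 0.32 and 0.34. Over all genes tested, 24.1, 27.5 and 28.4% were higher and 22.2, 25.2 and 26.6% lower at days 2, 4 and 7. With library totals alone 6, 8 and 7 were higher and 1 lower at each day. Socs3 averaged 41.9 ± 5.4, 52.7 ± 15.7 and 34.3 ± 10.7 CPM in MI and 17.3 ± 4.37, 14.6 ± 2.98 and 10.8 ± 4.55 CPM in sham at days 2, 4 and 7 (SD, n = 5). The log2 fold change of Socs3 was 1.18, 1.68 and 1.48 (edgeR adjusted p = 1.06e-05, 1.98e-05 and 0.000493). The phosphatase genes Ptprc (1.46, 1.5 and 1.86) and Ptpn6 (1.33, 1.49 and 1.73) had changes as large, and both are leukocyte genes as well as inhibitors of JAK signalling. Dusp1 was lower at all 3 days (-0.73, -0.66 and -0.67) and Dusp6 higher (0.54, 0.62 and 0.64), both phosphatases of MAP kinases.

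Of 25 known target genes of STAT3 and gp130, 23, 23 and 24 were tested. At days 2, 4 and 7, 13, 15 and 14 were higher and 1, 0 and 2 lower, with medians of 0.45, 0.84 and 0.83. Over all genes tested, 24.1, 27.5 and 28.4% were higher and 22.2, 25.2 and 26.6% lower. The list was chosen with earlier results of these data known. With library totals alone, 18 of the targets were higher and 0 lower at day 7. Timp1, the inhibitor of matrix metalloproteinases, was higher by 2.58, 2.98 and 2.83 on the log2 scale (edgeR adjusted p = 4.59e-08, 6.42e-09 and 1.48e-05). The chemokine gene Ccl2 (1.95, 2.89 and 2.03) and the transcription factor gene Myc (2.17, 2.15 and 1.89) were also higher at every day. Lcn2, which encodes lipocalin 2, was higher by 1.12, 1.25 and 2.18 (edgeR adjusted p = 0.00203, 0.0276 and 0.0165). The Lcn2 call was lost at day 7 without the lung-bearing libraries (1.79, edgeR adjusted p = 0.2) and at day 4 without a filter (0.0622) or without sham replicate 1, 4 or 5 of that day (0.0611, 0.0558 and 0.0577). Serpina3n, an acute-phase protease inhibitor, averaged 152 ± 21.0, 176 ± 55.7 and 184 ± 76.5 CPM in MI and 149.6 ± 70.2, 64.6 ± 24.5 and 29.0 ± 11.2 CPM in sham (SD, n = 5). Its log2 fold change of -0.06, 1.28 and 2.48 differed between days 7 and 2 by 2.57 (edgeR adjusted p = 0.000295), and as for Osmr the MI means were alike while the sham means were lower at later days. Many of these targets have other known inducers, and their list gives no measure of IL-6 signalling. Without the lung-bearing libraries, the counts at day 7 were 2 higher for the shedding genes, 1 higher and 3 lower for the JAK and STAT genes, 4 higher and 2 lower for the inhibitors and 15 higher and 1 lower for the targets.

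**Figure D5:**
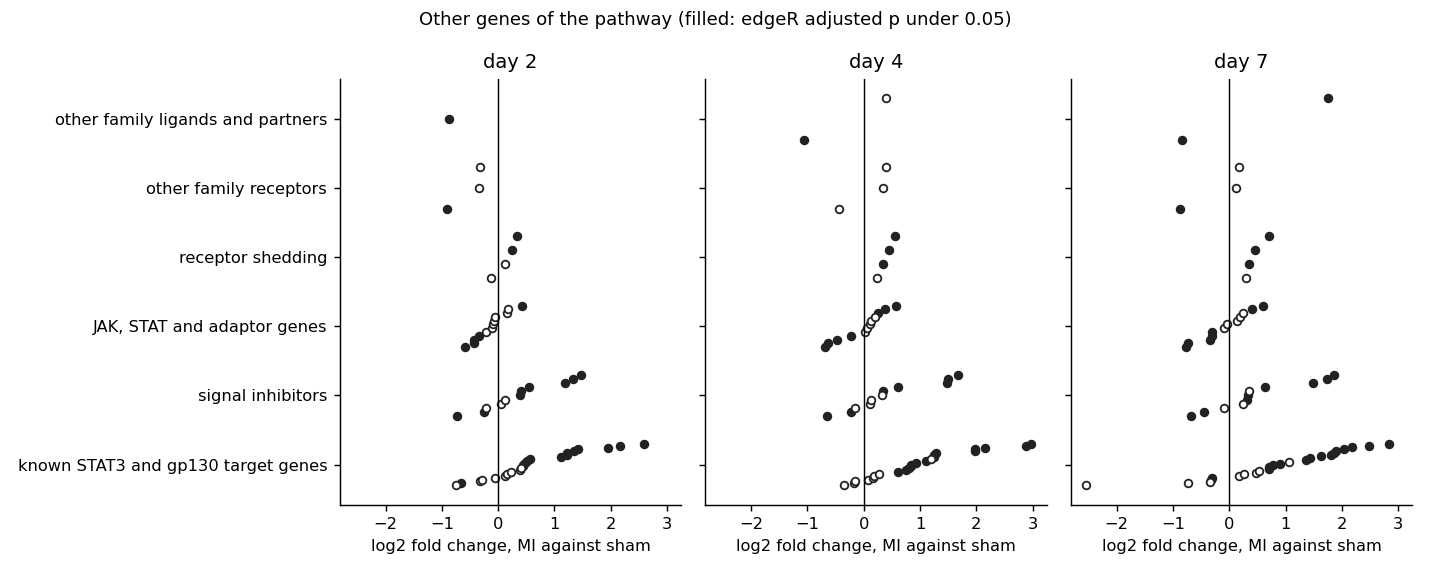
Log2 fold change of MI against sham (horizontal axis) for the other genes of the pathway by list and day, filled where the edgeR adjusted p was under 0.05. The target genes extend furthest to the right at Timp1, at 2.58, 2.98 and 2.83 at days 2, 4 and 7.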

How the data were processed

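RNA from mouse hearts was made into 30 directional libraries and read as pairs of 150 bases, per the labels' protocols. The authors deposited raw counts per Ensembl gene, made with bcl2fastq 2.20.0 and featureCounts on GRCm38, per the submitters' processing notes. The aligner, annotation release, strand setting and version of featureCounts were not given in the sources used here. GENCODE M21 (GRCm38) named 97.5% of the genes. Samples were grouped by operation and day from their titles. Each day's 10 libraries were compared with edgeR 4.0.16 in R 4.3.3 (filterByExpr with minimum count 10 and minimum total 15, TMM, robust quasi-likelihood F test, 2-sided, Benjamini-Hochberg over all genes), and differences between days in a fit of all 30. The fits were tested on simulated data. CPM are counts over the library total. The 4 comparisons of members below the filter used exact permutation tests of CPM in scipy 1.17.1.

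All 10 members are named, up to 3 called genes with the largest changes from each pathway list and day, with the tested ligands and receptors, and the 3 genes nearest to each member called at 2 or more days. Stat3, Dusp1 and Dusp6 were named after their values were seen. The members and lists were chosen with earlier results of these data known. Alternatives were DESeq2 1.42.0, limma 3.58.1 voom with sample weights, median-ratio factors, other filters, a replicate block, 1 fit of all libraries, leaving out each library, and leaving out the libraries with lung or skeletal muscle transcripts. Scaling by library totals was added after seeing the data, as were the list counts without the lung-bearing libraries. The ratio of Osmr to Lifr was not among the planned comparisons. A gene of the list of other ligands is not reported here.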

Additional observations from a re-analysis of the deposited data

Results flagged for a closer look

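In 2 of the 60 sets of 5 libraries examined, a library stood apart from the other 4 by more than a Dixon test at 95% allows, and chance gives about 1 such set in 20. Il6 read 13.4 CPM in MI day 7 replicate 1, where the other MI libraries of that day read 2.70 to 5.69 CPM. The same library had the highest summed neutrophil markers of its group, 264 CPM in a range that starts at 17.4. Its monocyte and macrophage sum was also the highest of the group, 2617 CPM in a range that starts at 1248. Its cardiomyocyte sum was the lowest, 30568 CPM in a range that ends at 40000. Il6ra read 16.3 CPM in MI day 2 replicate 1, where the others read 10.1 to 11.5 CPM, and this library also had the highest neutrophil sum of its group, 698 CPM. The monocyte and macrophage sum of MI day 2 replicate 1 was 893 CPM, inside the range of its group (609 to 1270). Its cardiomyocyte sum was the lowest of the group, 32484 CPM. The part of any of these cell types in the Il6 and Il6ra values was not tested.

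The effect of MI differed between days 7 and 2 for Osmr, by 0.54 on the log2 scale, and for Clcf1, by -1.14. For Osmr the sham mean was lower at day 7 than at day 2 while the MI mean was much the same, and for Clcf1 the MI mean was lower while the sham mean was much the same. Day 2 cannot be told apart from whatever goes with the other number in its labels.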

How the results depend on the processing

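Over all alternatives, 1281 values of single members kept their direction and their side of the threshold, 24 fell short of it and 5 newly passed it. Another 36 values, of 11 comparisons that passed in neither fit, lay on the other side of 0 (lowest adjusted p = 0.34). For MI against sham, leaving out each library in turn gave 8 members called at day 2, 7 to 8 at day 4 and 5 to 6 at day 7. For the difference between days 7 and 2, 1 to 3 were called in this way, 0 without the libraries with lung transcripts and 0 with the replicate block (Osmr 0.52, edgeR adjusted p = 0.0534, and Clcf1 -1.21, 0.0501). The cause was not tested. With the block, Clcf1 at day 7 also missed the threshold (0.72, edgeR adjusted p = 0.0531). The labels do not say that equal numbers pair libraries. Their deviations correlated by -0.192 to 0.23, and 4 of 15 MI libraries were nearest to the sham library of their number.

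Over all genes, 746 differed between days 4 and 2. This became 475 without a filter, 1217 with DESeq2, 1802 with limma voom and 416 to 1236 leaving out each library. Between days 7 and 4, 158 genes differed, and 84 without a filter, 419 with DESeq2, 289 with limma voom, 18 without the lung-bearing libraries, 95 without the library with skeletal muscle transcripts, and 70 to 294 leaving out each library. Il6 newly passed between days 7 and 2 without sham day 2 replicate 4, sham day 7 replicate 2 or MI day 7 replicate 5 (edgeR adjusted p = 0.0447, 0.0408 and 0.0418). The low counts of Il11 and Osm limit what could be detected for them.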
